A study of Mus musculus with 63 samples.

Results

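The 15 arrays described here measured mock keratinocytes carrying wild-type EGFR after treatment with 1 of 3 inhibitors of the EGFR tyrosine kinase, AG1478, Erlotinib or PD153035, with 5 arrays per compound. They are 15 of the 63 arrays of the series and were chosen by their labels alone. The comparison group is untreated wild-type mock cells, 5 arrays in all. A pair of those arrays carries the name repeat 1, with opposite dye orders, and was averaged, leaving 4 untreated samples numbered 1, 2, 3 and 5. The 3 compounds were pooled as the mean of the 3 group differences from untreated cells, and each compound was also compared on its own.

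The cells were skin keratinocytes of newborn CD-1 mice, wild type for Egfr and labelled mock, as opposed to the cells transduced with v-rasHa elsewhere in the series. For the treated samples, the labels give a culture time of 4 days, followed by 1 µM of a compound for 2 h. Dose and treatment time were the same for all 3 compounds. The labels of the untreated mock cells give no treatment and no culture time, so their culture time may differ from that of the treated cells. Nor do these labels say whether the untreated cells received the compounds' solvent. Every array set RNA of 1 sample beside a common reference, Universal Mouse Reference RNA made from 11 cell lines, so each value is a log ratio of sample to reference, taken as log2. The series sets these groups beside ras-transduced and EGFR-deficient keratinocytes. The series design statement speaks of biological replicates, but no label says which samples came from separate cultures. Each SE and p-value below rests on 1 spread per probe, shared by the 13 groups fitted, 62 samples in all. That spread can differ from the spread of the mock samples given beside it, and may in part be technical.

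EGFR is a receptor tyrosine kinase that binds growth factors of the EGF family and passes the signal through the RAS, RAF, MEK and ERK kinases and through PI3 kinase. In keratinocytes this pathway is known for supporting proliferation and migration, for inducing immediate early transcription factors and their negative feedback regulators, and for the production of cytokines and chemokines. The 3 compounds are anilinoquinazolines that compete with ATP in the kinase domain. In bulk RNA of this kind, fewer cells of a type and less RNA per cell cannot be told apart.

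Among 27786 probes tested, limma (linear models with moderated variances and Benjamini-Hochberg adjustment, threshold 0.05) called none (0%) in the pooled comparison of inhibitors with untreated mock cells. At unadjusted p under 0.05 there were 1445 probes, 5.2% of those tested, with 795 higher and 650 lower in treated cells. Taken singly, the compounds also gave 0 calls each (0%). AG1478 had 1807 probes at unadjusted p under 0.05 (6.5%), Erlotinib 880 (3.17%) and PD153035 947 (3.41%). The median 95% interval of a probe reached 0.66 on the log2 scale on either side of the pooled difference, and 0.79 for each compound alone. Array weights, an alternative setting, gave 527 calls in the pooled comparison. There the averaged untreated sample 1 carried a weight of 5.69 where no other mock-cell sample exceeded 2.75. With its 2 arrays kept apart the weighted count was 113. Accordingly, the differences given below are measured sizes with their errors, and none of them passed the threshold in the fit used throughout.

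Transcripts of neutrophil-attracting chemokines lay lower in treated cells with each of the compounds. Cxcl1, Cxcl2 and Cxcl3 encode ligands of the receptor CXCR2 and lie near each other on chromosome 5. Their promoters are shown as those of 3 genes whose values lay lower with each compound. This choice leaves out Cxcl5, also a ligand of CXCR2, which lay lower with each compound too. The mean log2 ratio of Cxcl5 was 3.33 in untreated cells and 0.89, 1.93 and 0.95 with AG1478, Erlotinib and PD153035. RefSeq (assembly GRCm38.p6) places the 120 bases before the gene starts at chr5:90785981-90786100 for Cxcl3, chr5:90891125-90891244 for Cxcl1 and chr5:90903779-90903898 for Cxcl2, all on the plus strand. They read as follows, with the longest run of letters that the 3 windows share, GGGAATTTCCC, in capitals. It holds a form of the binding motif of NF-κB, a transcription factor family of inflammatory genes.
Cxcl3: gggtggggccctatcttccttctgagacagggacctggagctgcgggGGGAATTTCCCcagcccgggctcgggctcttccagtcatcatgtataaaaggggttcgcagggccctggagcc
Cxcl1: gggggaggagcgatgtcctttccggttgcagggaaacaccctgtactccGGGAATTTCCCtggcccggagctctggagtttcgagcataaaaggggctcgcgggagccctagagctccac
Cxcl2: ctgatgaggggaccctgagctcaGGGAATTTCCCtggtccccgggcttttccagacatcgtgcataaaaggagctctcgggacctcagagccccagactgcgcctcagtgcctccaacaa

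The capitals begin 73 bases before the gene start in Cxcl3, 71 in Cxcl1 and 97 in Cxcl2. Searched on both strands, these 11 letters were present in the same window of 9 of 32851 promoters in the RefSeq table, or 0.0274%, the 3 printed included. Of the 20 cytokine genes below that have an entry in the table, the 3 printed were the ones with a match. The letters were taken from these very promoters, so their presence there is no finding, and a match describes letters and not binding.

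Cxcl3 showed the lowest values in treated cells relative to untreated ones among the CXCR2 ligands. Its log2 ratios in untreated cells were 3.62, 3.39 and 2.89 in samples 1, 3 and 5, and sample 2 had no value. With AG1478 they were 1.41, −0.20, 0.62 and 0.27, with Erlotinib 0.58, 0.30, 2.38 and −0.09, and with PD153035 1.15, 1.02, 1.50 and 0.00, while replicate 1 of each compound had no value. All 12 measured treated samples lay below all 3 untreated ones. The pooled difference was −2.46 ± 0.97 (SE), a 5.49-fold lower ratio, with a 95% interval from −4.41 to −0.51 (limma adjusted p = 0.858). Cxcl3 was not on the list of genes fixed for naming and was picked out after its values were seen.

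Cxcl1 gave log2 ratios of 3.88, 2.61, 4.58 and 3.44 in untreated samples 1, 2, 3 and 5. Its ratios were 1.92, 2.01, 3.34, 0.91 and 1.66 with AG1478, 0.95, 0.74, 4.35, 2.42 and 1.88 with Erlotinib, and −0.23, 1.78, 1.76, 1.99 and 1.42 with PD153035. Of the 15 treated samples, 13 lay below the lowest untreated one, while AG1478 replicate 3 and Erlotinib replicate 3 stood inside the untreated range. The pooled difference was −1.79 ± 0.63 (SE), or 3.46-fold lower (limma adjusted p = 0.817), and amounted to −1.61, −1.52 and −2.24 with AG1478, Erlotinib and PD153035. The 3 compounds were set against the same 4 untreated samples, so these differences are not independent of each other. Cxcl2 had a smaller pooled difference, −0.78 ± 0.33 (SE), and 7 of 15 treated samples lay below the lowest untreated sample, which was replicate 5 at 0.14.

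Tnf, the inflammatory cytokine, had log2 ratios of 2.13, 1.94, 2.43 and 0.28 in the untreated samples, again with replicate 5 apart from the rest. The treated samples ranged from −0.68 to 1.11 with a median of 0.33, so all 15 lay below untreated replicates 1 to 3, and 7 lay below replicate 5. Its pooled difference was −1.37 ± 0.47 (SE). Ccl20, which attracts Langerhans cell precursors and T cells, ran from 3.31 to 5.16 in untreated cells and from 0.85 to 4.02 in treated cells, with 12 of 15 treated samples below all untreated ones. Its pooled difference was −1.59 ± 0.66 (SE), with −1.68, −1.56 and −1.52 for AG1478, Erlotinib and PD153035. These values of Tnf and Ccl20 were also singled out after they were seen.

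Ptgs2, the inducible cyclooxygenase that makes prostaglandins, had untreated log2 ratios of 6.58, 5.65, 6.44 and 5.89. Treated samples spread from 1.39 to 7.12 with a median of 4.82, 9 of 15 lay below all untreated samples and 1 above them. The pooled difference of −1.32 ± 0.68 (SE) had a 95% interval from −2.68 to 0.04, and the other Ptgs2 probe gave −1.31 ± 0.83 (SE).

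**Figure D1:**
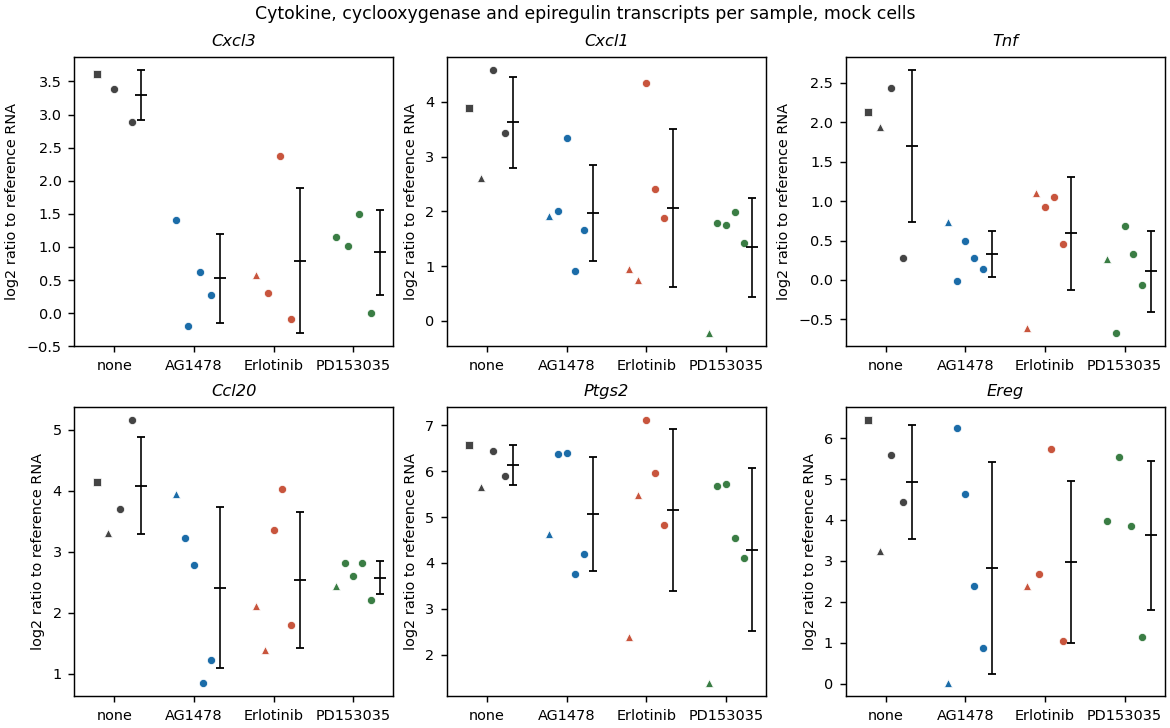
Log2 ratio to reference RNA of 6 transcripts in each untreated (none) and inhibitor-treated mock sample. Triangles are arrays of run 1, circles of run 2, the square is the averaged untreated sample 1 with an array in each run, and bars show the mean with SD of each group. Cxcl3 in the 12 treated samples with a value does not overlap the 3 untreated ones, whereas the groups overlap for Cxcl1, Tnf, Ccl20, Ptgs2 and Ereg.

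Across the list of cytokines and chemokines, 27 of 30 genes were measured, and 23 had a pooled difference below 0, against 48% of the 14443 genes tested. For 18 of the 27 the value was below 0 with each of the 3 compounds, against 27.4% of all genes, and for 3 it was above 0 with each, against 30.6%. The median difference of the list was −0.60 pooled and −0.53, −0.57 and −0.73 with AG1478, Erlotinib and PD153035, while the median of all genes was 0.02 pooled. Over the 21 members with a value on every array the pooled median was −0.30, with 17 below 0. None of the 27 was called, and 10 lay lower at unadjusted p under 0.05, against 2.24% of all genes. Those 10 were Cxcl1, Cxcl2, Cxcl3, Cxcl5, Ccl3, Ccl7, Ccl20, Il1a, Lif and Tnf. This list and the others below were chosen with earlier results of these data known. Their shares beside those of all genes are therefore descriptions and no independent support. The median of the list relative to the untreated mean was below 0 in all 15 treated samples, from −1.26 to −0.18, and 14 of 15 were below the lowest untreated sample, replicate 5 at −0.25.

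The list also held genes with values above 0. Il1b, the processed interleukin 1, had a pooled difference of 0.17 ± 0.42 (SE), which was −0.042 under equal array spread, and the keratinocyte chemokine Ccl27a had 0.54. Il1a, stored in keratinocytes as an alarm cytokine, was at −0.96 ± 0.45 (SE) and lay below the lowest untreated value in 13 of 15 treated samples. Il24 was at −1.11 ± 0.72 (SE), with −0.72 and −1.69 without untreated replicates 2 and 5, and Csf2, a growth factor of granulocytes and macrophages, at −0.71 ± 0.49 (SE). Lif, a cytokine of the interleukin 6 family, was at −0.79 ± 0.33 (SE). For Ccl3 the pooled difference of −1.19 ± 0.36 (SE) rested on untreated replicate 2, at 4.34 where the other untreated samples ran from 0.32 to 0.76, and without that sample it was −0.26.

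Genes of the cell cycle had list medians below 0 with each of the 3 compounds. In the list of DNA replication and G1/S genes 28 of 30 measured members had a pooled difference below 0, against 48% of all genes, and 25 were below 0 with each compound, against 27.4%. The list's median was −0.44 pooled, and −0.33, −0.38 and −0.58 for AG1478, Erlotinib and PD153035, and −0.28 pooled without untreated replicate 3. In the list of mitosis and G2/M genes all 29 measured members had a pooled difference below 0 in this fit, and 22 were below 0 with each compound, again against 48% and 27.4% of all genes. Quantile normalization and equal array spread each left 28 of 29 below 0. The median was −0.37 pooled, and −0.11, −0.53 and −0.56 in the same order. Both cell cycle lists were likewise chosen with earlier results of these data known.

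Kif11, the kinesin that pushes the poles of the mitotic spindle apart, had log2 ratios of 1.68, 2.58, 2.18 and 1.63 in the untreated samples. With AG1478 its ratios were 0.17, 1.13, 0.70, −0.10 and 0.44, with Erlotinib 0.92, 0.59, 0.88 and 0.39 in replicates 2 to 5, and with PD153035 0.43, 0.99, 1.32, 0.92 and 0.57. All 14 measured treated samples lay below all 4 untreated ones. The pooled difference was −1.31 ± 0.32 (SE), 2.49-fold lower, with −1.52, −1.28 and −1.14 for AG1478, Erlotinib and PD153035 (limma adjusted p = 0.445 pooled).

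Sgo2a, a protector of centromeric cohesin, had untreated log2 ratios of 0.60, 1.28, 1.48 and 0.49. The treated values ran from −0.83 to 0.54 with a median of −0.09, and 14 of 15 lay below the lowest untreated value. Its pooled difference was −1.05 ± 0.25 (SE). Mki67, which encodes the proliferation antigen Ki-67, gave 3.14, 3.04, 4.65 and 2.07 untreated and −0.44 to 3.48 treated, with a pooled difference of −1.58 ± 0.56 (SE). For Mki67 7 of 15 treated samples lay below all untreated ones, and the second probe was at −0.89 ± 0.60 (SE).

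Of the mitosis list, 8 members had an unadjusted p under 0.05, all of them lower, against 2.24% of all genes: Kif11, Mki67, Cenpe, Ube2c, Cdk1, Hmmr, Aurkb and Cks2. A second Cks2 probe gave −0.17 ± 0.34 (SE), and the Cks2 difference was −1.79 within run 1 and −0.13 within run 2, the runs described below. Other probes gave −1.34 and −0.43 for Cenpe and −0.87 for Hmmr. Cdk1, the kinase that drives entry into mitosis, was at −0.77 ± 0.36 (SE), or −0.50 without untreated replicate 3, and Ube2c, a ubiquitin-conjugating enzyme of the anaphase-promoting complex, at −1.08 ± 0.47 (SE). Of the replication list 3 of 30 members lay lower at unadjusted p under 0.05, against the same 2.24%. Orc1, the largest subunit of the origin recognition complex, had a pooled difference of −1.24 ± 0.43 (SE), and −0.71 without untreated replicate 3. Ccne2, cyclin E2, was at −1.02 ± 0.30 (SE), and E2f1, a transcription factor of S phase genes, at −1.02 ± 0.43 (SE). Of the fixed genes, the replicative helicase subunit Mcm5 was at −0.41 ± 0.36 (SE) and cyclin E1, Ccne1, at −0.45 ± 0.43 (SE), with its second probe at 0.01. Without untreated replicate 3 they were at −0.27 and −0.24, and without replicate 2 Ccne1 was at −0.69. Probes of the licensing factor Cdc6 disagreed, the one used in the list at 0.27 ± 0.35 (SE) and the other 2 at −0.99 and −1.57, and their average was −0.75.

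**Figure D2:**
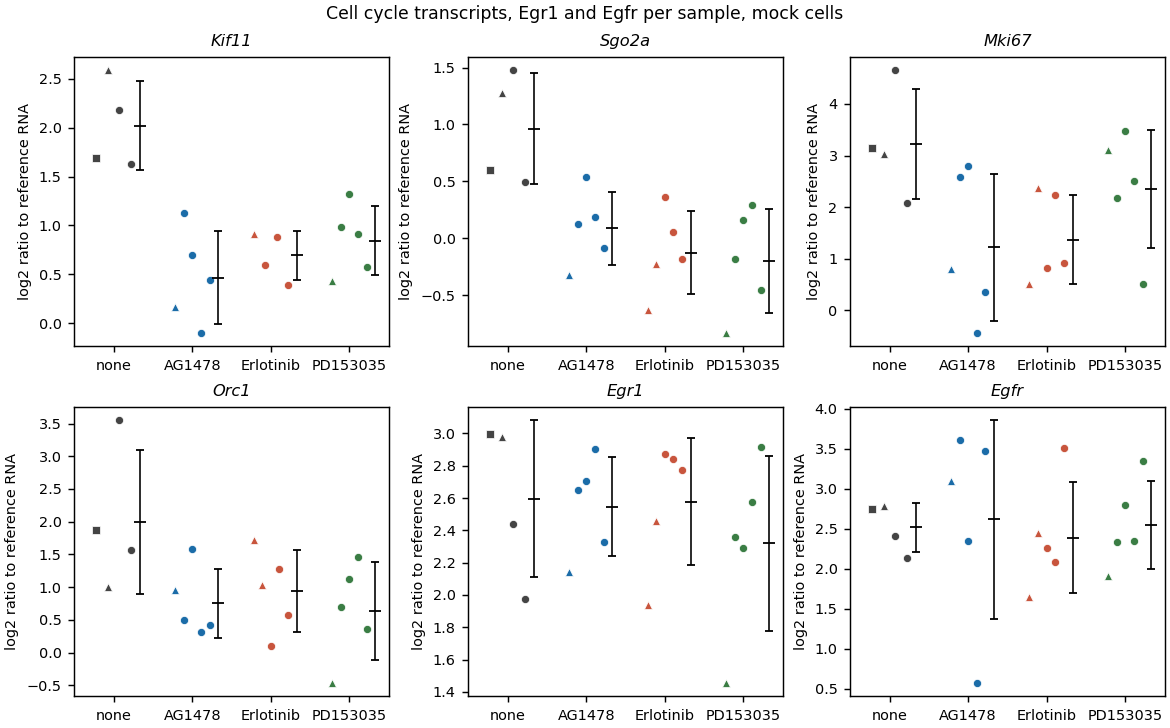
Log2 ratio to reference RNA of 4 cell cycle transcripts, Egr1 and Egfr in each mock sample, with symbols and bars as in the plot of cytokines. Kif11 in the 14 treated samples with a value lies below all 4 untreated samples, while Egr1 and Egfr ratios of treated and untreated samples overlap.

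The cell cycle lists varied more between samples than the cytokine list. The median of the replication list lay below the lowest untreated sample in 10 of 15 treated samples, and AG1478 replicate 3 (0.37) and Erlotinib replicate 3 (0.29) lay above 0. The mitosis median lay below the lowest untreated sample in 5 of 15. For mitosis, untreated replicate 2 stood at −0.82 where the other untreated samples ran from 0.04 to 0.50, and treated samples ran from −1.36 to 0.63. Without untreated replicate 2 the pooled median of the mitosis list was −0.70 in place of −0.37, and without replicate 3 it was −0.20.

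**Figure D3:**
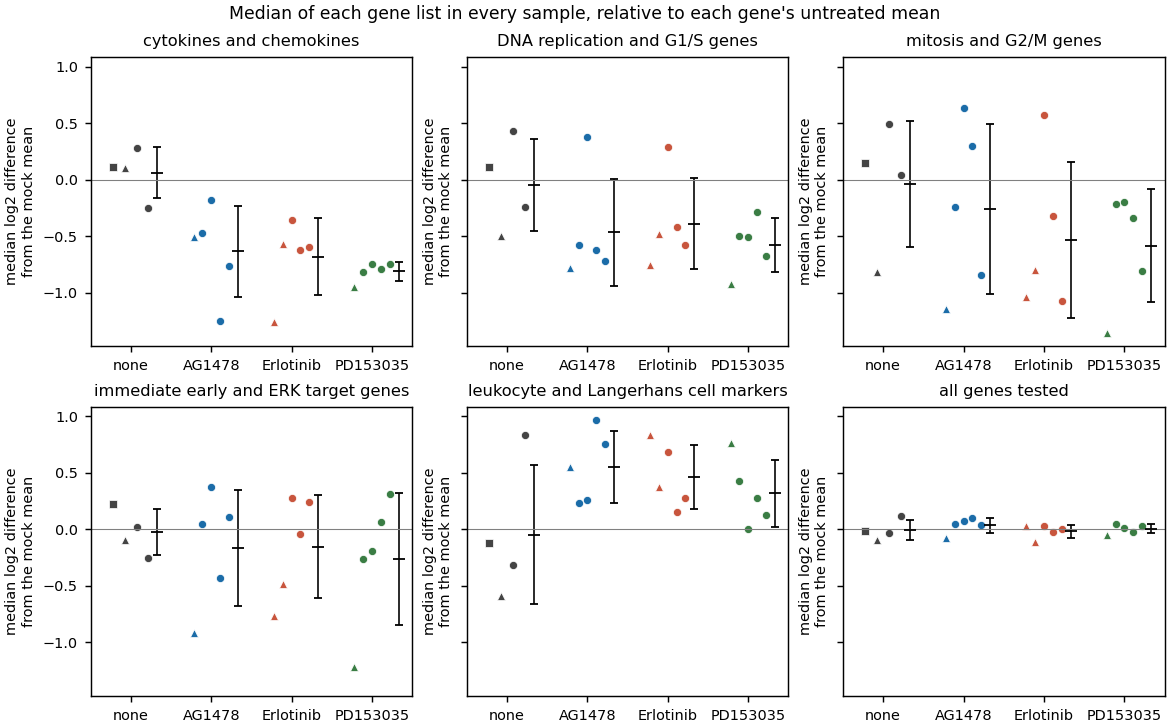
Median log2 difference of 5 gene lists and of all genes tested from each gene's untreated mean, in every mock sample, with symbols as in the plot of cytokines and bars showing mean with SD. Cytokine medians of all 15 treated samples lie below 0, and run 1 samples of the treated groups are the lowest for immediate early and mitosis genes within AG1478 and PD153035.

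Immediate early and ERK target genes, which respond early to the pathway, had a smaller list median. Of 30 measured, 23 had a pooled difference below 0 and 17 were below 0 with each compound. The median was −0.26 pooled (−0.11 without untreated replicate 1), and −0.15, −0.11 and −0.35 for AG1478, Erlotinib and PD153035. With the spread of all arrays set equal, the pooled median was 0.048 with 13 of 30 below 0, so the direction of this list depended on the scaling. In 9 of 15 treated samples the list's median was not below the lowest untreated sample, and in 8 it was below 0.

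Egr1, the immediate early transcription factor that follows ERK activity, had log2 ratios of 3.00, 2.98, 2.44 and 1.98 untreated and a range of 1.46 to 2.92, median 2.57, treated. Its pooled difference was −0.11 ± 0.26 (SE), with a 95% interval from −0.63 to 0.41, and it was 0.11 after quantile normalization and 0.33 with equal array spread. Egr2 of the same family, singled out after its values were seen, was at −0.82 ± 0.26 (SE), and 7 of 14 treated samples with a value lay below the lowest untreated one. Fos was at −0.50 ± 0.55 (SE), Fosl1 at −0.49 ± 0.65 (SE), Myc at −0.16 ± 0.64 (SE) and Ier3 at −0.09 ± 0.35 (SE), with Myc and Ier3 above 0 under equal array spread. Single untreated samples set much of these values. Fos was at −0.16 without untreated replicate 1 and −0.78 without replicate 2, and Fosl1 at −1.39 without replicate 5, −0.09 without replicate 2 and −0.06 without replicate 3. The stress-inducible factor Atf3 was at −0.99 ± 0.52 (SE), or −1.67 without untreated replicate 5, and cyclin D1, Ccnd1, at −0.36 ± 0.40 (SE). Phlda1, a growth factor-induced gene, was at −0.58 ± 0.40 (SE). Of this list, Egr2 and Lif, 2 of 30, had an unadjusted p under 0.05, against the 2.24% of all genes that lay lower at that level. This count is small, and Lif belongs to the cytokine list too.

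Negative feedback regulators of the pathway comprised 13 measured genes, 10 with a pooled difference below 0 and 5 below 0 with each compound, at a median of −0.18. Dusp6, the phosphatase that acts on ERK, was at −0.28 ± 0.32 (SE), with 0.10, −0.14 and −0.79 for AG1478, Erlotinib and PD153035. Dusp1 was at 0.08 ± 0.40 (SE), Spry2 at −0.18 ± 0.24 (SE) and Errfi1, an inhibitor of the EGFR kinase domain, at −0.26 ± 0.25 (SE). Errfi1 was at 0.025 without untreated replicate 2 and −0.50 without replicate 3, and Spry2 at −0.33 and −0.11 without replicates 2 and 1. Without replicate 5 Dusp6 was at −0.18. Of these, Dusp1 lay below 0 in the fits with run as a block, and Spry2 at 0.011 without PD153035. Spry1, an inhibitor of RAS signalling, had −1.16 ± 0.52 (SE), which rested on untreated replicate 2, at 3.01 where the others ran from −0.59 to −0.36. Without that sample it was −0.33, and a second Spry1 probe gave 0.08. Dusp9, another ERK phosphatase and not in the list, was among the genes with the smallest p and is described below.

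The EGF family ligands had 8 measured genes, 5 with a pooled difference below 0, at a median of −0.27. Ereg, encoding epiregulin, had log2 ratios of 6.45, 3.24, 5.58 and 4.45 in untreated cells and 0.02 to 6.25 in treated cells. Its pooled difference of −1.86 ± 1.04 (SE) came with a 95% interval from −3.95 to 0.24. The wide spread of Ereg within each group limits what this value says. Hbegf was at −0.48 ± 0.49 (SE), Tgfa at −0.35 ± 0.46 (SE) and Nrg1 at −0.76 ± 0.50 (SE). Without untreated replicate 5 Hbegf was at −1.05 and Nrg1 at −1.43, without replicate 2 Nrg1 was at −0.17, and without replicate 1 or 3 Hbegf was at −0.21 and −0.26.

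Egfr itself had log2 ratios of 2.75, 2.79, 2.41 and 2.14 untreated and 0.57 to 3.60 treated, with a pooled difference of 0.04 ± 0.36 (SE) and a second probe at −0.47 ± 0.43 (SE). Erbb2 was at 0.00 ± 0.32 (SE), with either sign under the alternatives, and Erbb3 at −0.37 ± 0.34 (SE). The list of ErbB receptors and proximal signalling genes, 11 measured, had a median of −0.02, which was 0.047 after quantile normalization and 0.046 with equal array spread. The inhibitors of DNA binding Id1 and Id2 were at 0.16 ± 0.31 (SE) and 0.03 ± 0.30 (SE). Signs of both depended on the processing, Id1 at −0.11 with probes averaged by gene and Id2 at −0.12 with equal array spread.

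**Figure D4:**
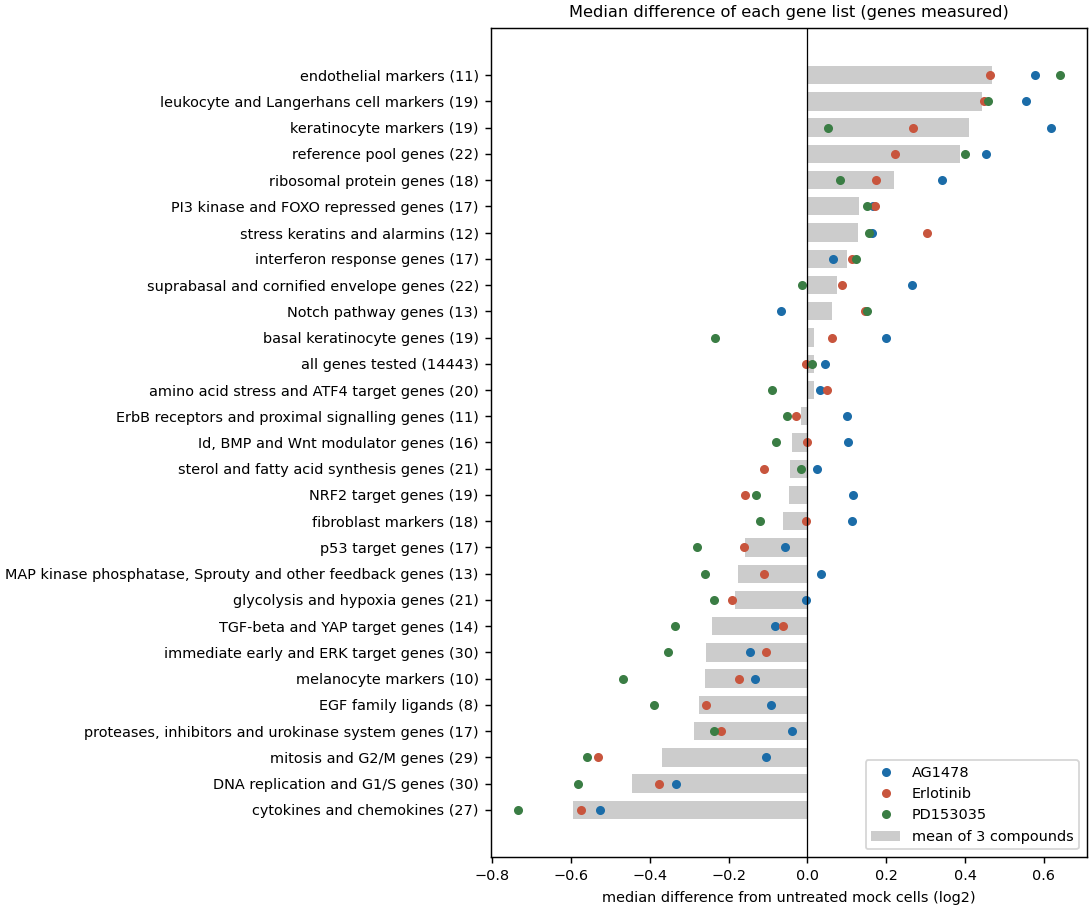
Median log2 difference from untreated mock cells of 28 gene lists and of all genes tested, as the mean of the 3 compounds (bars) and for each compound (points), with the number of genes measured in brackets. Cytokines (−0.60), replication genes (−0.44) and mitosis genes (−0.37) lie at the lower end and endothelial (0.47) and leukocyte (0.44) markers at the upper end.

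Marker lists of the cell types went both ways. Leukocyte and Langerhans cell markers had 17 of 19 members above 0 in the pooled comparison, with a median of 0.44. Its lowest value under the alternatives was 0.22. Endothelial markers had 11 of 11 above 0 in this fit, with a median of 0.47. With equal array spread 8 of 11 were above 0, with a median of 0.35. At unadjusted p under 0.05, 1 of the 19 and 2 of the 11 lay higher, against 2.85% of all genes. Relative to the untreated mean, both list medians were above 0 in all 15 treated samples. Leukocyte medians ran from 0.002 to 0.97 treated and from −0.59 to 0.83 untreated. Endothelial ones ran from 0.006 to 1.97 treated and from −0.85 to 1.24 untreated. The median log2 ratio of leukocyte markers to the reference RNA was below 0 in every mock sample, from −2.25 to −0.72 untreated and from −1.37 to −0.40 treated, and that of endothelial markers ran from −3.24 to −1.05 untreated and from −2.18 to −0.78 treated. Of the genes marking the reference pool, 16 of 22 were above 0, with a median of 0.39 that was 0.06 under equal array spread. The spread of values on an array, as its SD, averaged 1.42 for untreated arrays and 1.31, 1.29 and 1.26 for AG1478, Erlotinib and PD153035. Keratinocyte markers had 13 of 19 above 0 at a median of 0.41. Their median difference was −0.30 within run 1 and 0.72 within run 2, the runs described below. Relative to the untreated mean, their median was below 0 in 8 of 15 treated samples. It was highest in replicate 5 of each compound, at 1.61, 1.50 and 1.47 with AG1478, Erlotinib and PD153035. Fibroblast markers had 12 of 18 below 0 at a median of −0.06, and melanocyte markers 8 of 10 below 0 at a median of −0.26. Under equal array spread the medians of the cytokine, replication and mitosis lists were −0.47, −0.33 and −0.47. The part of the marker genes in these lists was not tested.

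The experiment numbers in the labels fall into 2 runs of nearby numbers, and the labels do not say what a run stands for. Run 1 holds untreated replicates 1 (its Cy3 array) and 2, AG1478 replicate 1, Erlotinib replicates 1 and 2 and PD153035 replicate 1, and run 2 holds the rest. Within run 1, with 4 treated and 2 untreated arrays, the median difference was −0.96 for cytokines, −0.82 for replication, −0.92 for mitosis and −1.01 for immediate early genes. Within run 2, with 11 treated and 3 untreated arrays, it was −0.34, −0.27, −0.31 and 0.00. So the medians of the cytokine and cell cycle lists were below 0 in each run, and that of the immediate early list in run 1 but not in run 2. Untreated sample 1 has an array in each run, so the 2 runs are not fully separate comparisons. The differences of single genes within runs 1 and 2 were −2.69 and −1.64 for Cxcl1, −1.90 and −1.13 for Tnf, −1.97 and −0.90 for Kif11, and −0.99 and 0.19 for Egr1. They were −1.59 and 0.12 for Fosl1, −1.89 and −0.01 for Hbegf, −2.61 and 0.35 for Nrg1, and the median of the EGF family ligands was −1.41 and 0.015. As a check of the cell type, the median keratinocyte marker exceeded the median reference pool marker by 2.99 to 6.61 on each of the 20 arrays, and arrays held 24899 to 28032 values. The number of arrays and the spread between them limit the precision of all values here.

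The genes with the smallest p in the pooled comparison were led by Foxd3, a forkhead transcription factor of the neural crest. Its untreated log2 ratios were 2.18, 1.46, 2.80 and 2.56, and treated values ran from −0.25 to 1.85 with a median of 0.70 over 13 samples, 11 of them below all untreated ones. The difference was −1.40 ± 0.26 (SE), the smallest adjusted p of the comparison (limma adjusted p = 0.062), with −1.48, −1.38 and −1.35 for AG1478, Erlotinib and PD153035. Without untreated replicate 2 it was −1.68 (limma adjusted p = 0.00796). Leaving out Erlotinib replicate 2, AG1478 replicate 3, PD153035 replicate 5 or PD153035 replicate 2 gave −1.51, −1.48, −1.46 and −1.46 (limma adjusted p = 0.00808, 0.0109, 0.0345 and 0.0386), so Foxd3 passed the threshold in 5 of the 19 fits with a sample left out. In the other 14 it did not, and without untreated replicate 3 it was −1.24 (limma adjusted p = 0.58). Within run 1 the difference was −0.54, with 2 treated values, and within run 2 −1.77. In untreated ras-transduced cells Foxd3 was at −1.61 ± 0.31 (SE) against these mock cells (limma adjusted p = 0.00285), a comparison that shares the 4 untreated samples and in which limma called 51 of 27859 probes (0.183%).

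Other genes of smallest p with lower values were Csnk1g3, a casein kinase (−1.13 ± 0.25), Fgf7, keratinocyte growth factor (−1.39 ± 0.33), Slc38a4, an amino acid transporter (−1.13 ± 0.29), Zfp111 (−1.26 ± 0.33), the orphan receptor Gpr165 (−1.02 ± 0.27), the odorant receptor Olfr672 (−1.47 ± 0.41) and Dusp9 (−2.19 ± 0.62), each with its SE, beside Kif11 and Sgo2a. Dusp9 had untreated log2 ratios of 3.67, 2.35, 3.88 and 2.68 and treated ones of −0.26 to 2.93. All but 1 of its 14 treated samples with a value lay below the untreated range. For Olfr672 the difference was −0.44 without untreated replicate 2, and for Slc38a4 it was −0.72 without untreated replicate 3, while a second probe gave −0.29 ± 0.47 (SE).

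With higher values, the genes of smallest p were Bend7 (1.22 ± 0.27), Arhgap15, a GTPase-activating protein for Rac (1.20 ± 0.28), Mylk3, a myosin light chain kinase (1.18 ± 0.30), Meikin (1.11 ± 0.28), the homeobox gene En2 (1.18 ± 0.31), Lypd6 (1.25 ± 0.34), Mypn (0.77 ± 0.21), Rims1 (1.16 ± 0.32), Cybb, a subunit of the phagocyte NADPH oxidase (1.22 ± 0.34), and Vsig2 (1.02 ± 0.28), each with its SE. Arhgap15 had untreated log2 ratios of −1.52, −1.12, −0.94 and −0.59, and all 15 treated samples lay above them, from −0.45 to 1.82. En2 ran from −1.89 to −1.40 untreated and from −1.33 to 0.14 in 14 treated samples. Cybb rested in part on untreated replicate 2, at −3.12, and without it was at 0.62, as Vsig2 was at 0.67. Second probes of Bend7, Arhgap15, Lypd6, Mypn, Cybb and Vsig2 had the same sign with smaller differences, 0.75, 0.35, 0.49, 0.05, 0.18 and 0.17.

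Genes for which all 3 compounds gave the same direction were counted over the 14443 genes, and all 3 comparisons share the untreated samples. The labels do not say whether treated samples of the same replicate number are related. The difference was at least 1 on the log2 scale lower with each compound for 38 genes (0.263%) and higher with each for 96 (0.665%). At unadjusted p under 0.05 with each compound, 36 genes were lower (0.249%) and 47 higher (0.325%). Every treated sample with a value lay below every untreated one with a value for 9 genes (0.0623%), which were Mex3c, Cd209g, Gpr165, Kif11, Scgb2b27, Uxs1, Dnajc9, Cxcl3 and Rad54b, and above them for 7 (0.0485%), which were Rnft2, Cx3cr1, Cry2, Arhgap15, En2, Plppr5 and Olfr995. Values were missing for several of them, Cxcl3, Rad54b and Dnajc9 having 12 treated values, Uxs1 and Plppr5 13, Kif11, Scgb2b27 and En2 14, and Olfr995 11, while Cxcl3, Rad54b and Olfr995 had 3 untreated values. Rad54b, a helicase of recombinational DNA repair, was at −0.92 ± 0.28 (SE). Cry2, a repressor of the circadian clock, was at 0.68 ± 0.24 (SE), with 1.03, 0.40 and 0.63 for AG1478, Erlotinib and PD153035. These genes were named because their values do not overlap.

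Differences between compounds were tested in 3 pairs at the same dose and time. limma called 0 probes for AG1478 minus Erlotinib, for AG1478 minus PD153035 and for Erlotinib minus PD153035 (0% each), with 870 (3.13%), 856 (3.08%) and 315 (1.13%) at unadjusted p under 0.05. With p-values adjusted over the 3 pairs together 0 of 83358 tests were called, and the smallest adjusted p was 1. An F test among the 3 compounds called 0 probes, with 579 at unadjusted p under 0.05. Array weights gave 1 call for AG1478 minus PD153035 and 0 for the other pairs. The median 95% interval, not adjusted for the number of probes, reached 0.75 on the log2 scale on either side. A probe may differ by more than that between compounds and not be called, as Aknad1 at −1.98 in AG1478 minus PD153035. These counts do not show that the compounds act alike.

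For single genes the intervals are wide. Cxcl1 differed by −0.10 between AG1478 and Erlotinib, with a 95% interval from −1.51 to 1.32, by 0.63 (−0.79 to 2.04) between AG1478 and PD153035, and by 0.72 (−0.69 to 2.14) between Erlotinib and PD153035. Kif11 differed by −0.25 (−0.99 to 0.50), −0.38 (−1.09 to 0.33) and −0.13 (−0.88 to 0.61) in the same order. For Egr1 the differences were −0.03 (−0.61 to 0.56), 0.23 (−0.36 to 0.81) and 0.26 (−0.33 to 0.84). Intervals that did not reach 0 among the fixed genes were those of Dusp6 and Spry2 for AG1478 minus PD153035, at 0.90 (0.19 to 1.61) and 0.60 (0.06 to 1.14), each with limma adjusted p = 1. In both genes AG1478 gave the higher value and PD153035 the lower one.

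The median over a list also differed in size between compounds, with no test of its own. For mitosis genes it was 0.27 in AG1478 minus Erlotinib and 0.33 in AG1478 minus PD153035, against 0.06 in Erlotinib minus PD153035, and for all genes 0.06, 0.04 and −0.01. For cytokines it was 0.02, 0.13 and 0.05. For the replication list it was 0.06, 0.22 and 0.19. AG1478 replicates 3 and 4 had mitosis medians of 0.63 and 0.30 above the untreated mean, and the other 3 AG1478 samples lay between −1.15 and −0.24. Erlotinib replicate 3, at 0.57, was the 1 other treated sample above that mean.

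**Figure D5:**
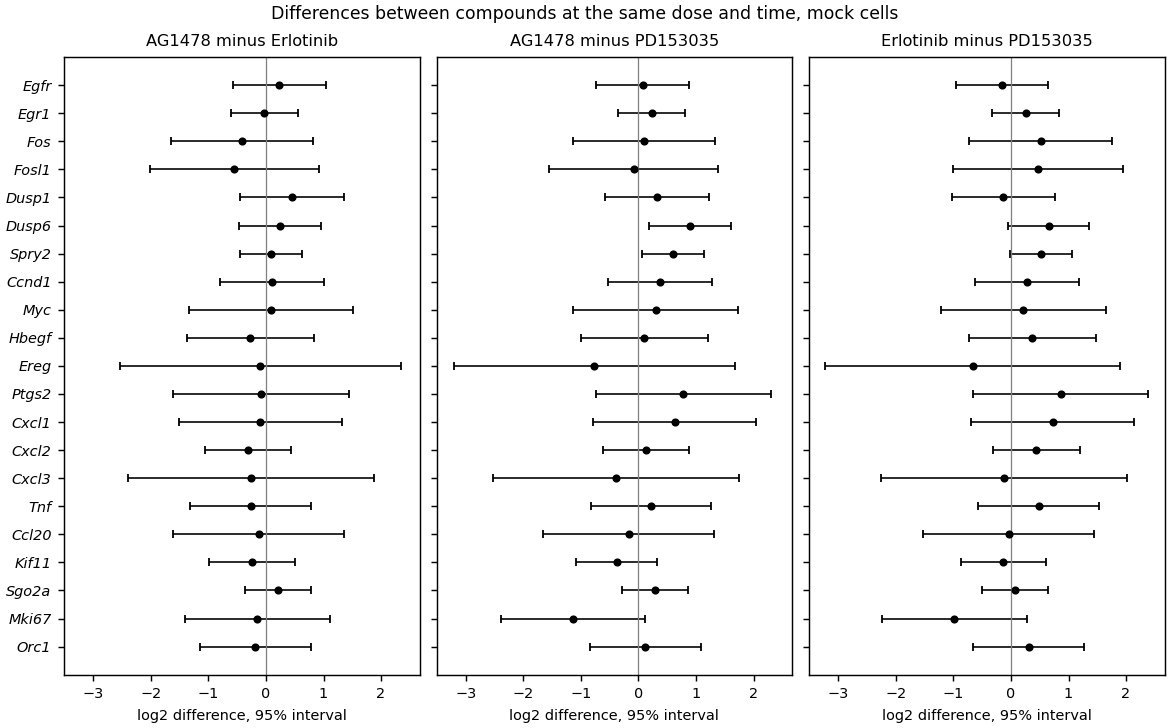
Log2 differences between the compounds with 95% intervals for 21 genes, from limma. Intervals cross 0 in all panels except for Dusp6 (0.90) and Spry2 (0.60) in AG1478 minus PD153035.

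The same 3 compounds were also given to ras-transduced cells, where each value comes from other samples. In wild-type ras cells limma called 611 of 27660 probes (2.21%) for inhibitors minus untreated, and in EGFR-deficient ras cells 69 of 27582 (0.25%). Treated and untreated wild-type ras arrays lie in different runs, so compound and run cannot be told apart there, and the difference from mock cells was not tested. In wild-type ras cells Cxcl1 was at −2.13 ± 0.58 (limma adjusted p = 0.034) and Tnf at −1.69 ± 0.43 (limma adjusted p = 0.0227), beside −1.79 and −1.37 in mock cells. Cxcl3 was at 0.27 ± 0.79 in ras cells and −2.46 in mock cells. Egr1 was at −2.73 ± 0.24 (limma adjusted p = 1.08e-11) in ras cells, against −0.11 in mock cells. The cytokine list in wild-type ras cells had a median of −0.13 with 15 of 27 below 0, beside −0.60 in mock cells. Its replication and mitosis counterparts were at −0.35 and −0.30, with 24 of 30 and 24 of 29 below 0. All genes there had a median of 0.09, with 6122 of 14304 below 0. In EGFR-deficient ras cells Cxcl1 was at −0.17 ± 0.58 and Tnf at −0.60 ± 0.43, neither called. There the AG1478 and PD153035 arrays lie in a run without untreated arrays, so compound and run cannot be told apart for them. The Erlotinib arrays share runs with some of the untreated ones.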

How the data were processed

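The deposited values are log ratios of the 2 dyes on spotted mouse arrays. They are taken as log2 from their spread, since the log base, background correction and scaling by the authors are not given in the sources used here. Per the labels' protocols, Trizol RNA was labelled indirectly with Cy3 or Cy5 against Universal Mouse Reference RNA. Each array was oriented as sample over reference according to whether it correlated positively or negatively with the median forward-labelled array. For all 20 mock-cell arrays described this equals the dye label, and it opposes the label on 2 arrays elsewhere. The mock arrays named repeat 1 were averaged.

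limma 3.58.1 (R 4.3.3, statmod 1.5.0) was fitted to 13 groups of 62 samples with a dye term, over 27786 of 28049 probes with values in at least 60% of each of the 4 mock groups. A missing value was left out of that probe's fit. Benjamini-Hochberg adjustment ran over all probes tested. Probes were named from the platform annotation: 20925 with 1 symbol, 159 with several and 6965 with none. A single probe stood for each of 14443 genes, the one with most values. Replicate numbers were not used as pairing. Scripts were tested on simulated data. Figures used matplotlib 3.10.9 under Python 3.11.15.

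Named genes were the 10 of smallest p in each direction, since none was called, and 24 measured genes of a fixed EGFR and ERK set; others are said to be chosen after their values were seen or stand as members of lists. Members and lists were chosen with earlier results of these data known. Alternatives covered dye, scaling, filters, probes, run, replicate block, array weights, pooling and each sample left out. Equal array spread, weights with the repeat 1 arrays kept apart and leaving out the 2 disputed arrays were chosen after seeing the data.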

Additional observations from a re-analysis of the deposited data

Results flagged for a closer look

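Over 67 genes described above, 266 gene and group combinations were screened for a sample standing apart from the rest of its group, and 23 were found. A chance rate of about 1 in 20 was assumed for the screen. Many of the genes were chosen for their values in these same samples, so no excess over that rate can be read from the count. Of the 23, 4 concern untreated replicate 2. Ccl3 was at a log2 ratio of 4.34 there, against 0.317 to 0.761 in the other untreated samples. Spry1 was at 3.01, against −0.586 to −0.364. Cybb was at −3.12, against −0.889 to −0.568, and Spry2 at −0.56, against −0.04 to 0.05. In untreated replicate 5, Hbegf was at −0.344 where the others ran from 1.64 to 2.04, and Atf3 at 0.085 where they ran from 2.56 to 3.02. In untreated replicate 1 Erbb3 was at 1.80, against 0.808 to 0.834.

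Among samples treated with PD153035, replicate 1 was apart for Cxcl1 at −0.226, for Cxcl2 at 0.714 and for Ier3 at 0.88, replicate 4 for Lypd6 at −0.662 and Il1a at 0.994, and replicate 5 for Id2 at −0.521. For Cxcl1 that sample was the lowest of its group, and for Cxcl2 the highest. Among samples treated with Erlotinib, replicate 3 was apart for Id2 at −2.22 and for the helicase subunit Mcm5 at 2.13, and replicate 4 for Slc38a4 at 0.968, for Rad54b at 0.547, for Ccne1 at 0.886 and for Ccne2 at 0.366. Among samples treated with AG1478, replicate 2 was apart for Bend7 at −1.51, replicate 3 for Gpr165 at −0.697 and Vsig2 at −0.816, and replicate 4 for Id2 at 0.024. Id2 therefore had a sample apart in each treated group, at a different replicate number in each. The source of these values was not tested.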

How the results depend on the processing

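The counts of probes called by limma were moved most by array weights, to 527 pooled, 28 for AG1478, 10 for Erlotinib, 330 for PD153035 and 1 for AG1478 minus PD153035. With weights and the repeat 1 arrays kept apart they were 113, 6, 4 and 83 for the pooled, AG1478, Erlotinib and PD153035 comparisons. Without weights, keeping those arrays apart gave 1 pooled call and 2 for AG1478, and averaging probes by gene or using 1 inhibitor group gave 1 pooled call each. Leaving out 1 sample at a time gave 0 to 1 calls pooled, for AG1478 and for PD153035. Replicate numbers as a replicate block gave 0 calls in each of the 7 comparisons, with 1701 pooled probes at unadjusted p under 0.05, and under this block Dusp1 was at −0.018 and Id2 at −0.078. The deviations of samples sharing a number correlated from −0.40 to 0.69 over 27 pairs (median 0.079, against −0.020 for other pairs). Of 19 samples, 8 correlated best with their own number. Mitosis medians were −1.15, −1.04 and −1.36 in replicate 1 of AG1478, Erlotinib and PD153035, and 0.63, 0.57 and −0.20 in replicate 3. Treated samples sharing a number may thus be related, so the 3 compounds may not be independent on the treated side. What a shared number stands for is not given in the labels.

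List medians kept their sign under all alternatives run for cytokines, replication and mitosis. The cytokine median was −0.30 over probes with a value on every array. With 1 sample left out it ran from −0.79 to −0.53 for cytokines, −0.57 to −0.28 for replication, −0.70 to −0.20 for mitosis and −0.35 to −0.11 for immediate early genes. With the spread of arrays set equal, the immediate early median was 0.048, that of ErbB genes 0.046, that of all genes −0.0068, Egr1 0.33, Il1b −0.042, Ier3 0.27, Myc 0.30 and Id2 −0.12. After quantile normalization the ErbB median was 0.047, that of all genes −0.0034, Egr1 0.11, Ier3 0.066 and Id2 −0.083.

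Other signs that turned belong to differences near 0. Egfr was at −0.0026 with no dye term, −0.048 with repeat 1 arrays kept apart, −0.22 with probes averaged, −0.10 with weights, −0.0027 with weights and those arrays apart, and −0.015 without AG1478. Id2 was at −0.021 with repeat 1 apart, −0.016 with only the 4 mock groups, −0.063 with weights and −0.0062 without AG1478. Id1 was at −0.11 and Cdc6 at −0.75 with probes averaged. Erbb2 was at −0.031 with no dye term, −0.031 on forward arrays, −0.18 with repeat 1 apart, −0.00047 with median centring, −0.015 with only the 4 mock groups, −0.035 with run as a fixed block, −0.50 with weights, −0.37 with weights and repeat 1 apart, −0.066 without Erlotinib and −0.0034 without the disputed arrays. Dusp1 was at −0.10 with run as a fixed block, −0.022 with run as a random block and −0.044 without AG1478, and Spry2 at 0.011 without PD153035. With 1 sample left out, Egfr ran from −0.11 to 0.18, Egr1 from −0.32 to 0.040, Ier3 from −0.21 to 0.041, Myc from −0.92 to 0.21, Id2 from −0.24 to 0.18, Dusp1 from −0.16 to 0.41 Errfi1 from −0.50 to 0.025, Il1b from −0.081 to 0.28 and Erbb2 from −0.36 to 0.32. The causes were not tested.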
